A study of Homo sapiens with 12 samples.

Results

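The effect of GATAD2A knockdown on the transcriptome was measured by RNA-seq in HEK293T cells, a human embryonic kidney line. The labels name HEK293T, while the study's text names HEK293, the parent line without the SV40 large T antigen. The samples described here are the 2 libraries of cells transfected with siRNA against GATAD2A (siGATAD2A) and the 2 libraries of cells transfected with control siRNA (siCTL), chosen by the treatment in their labels. They are 4 of the 12 libraries of the study. The other 8 are from cells transfected with siRNA against CARM1, CHD4, HDAC2 or KDM1A, 2 libraries each, and served here to find which changes differ between knockdowns. All groups were grown in DMEM with fetal bovine serum, are labelled as wild type in genotype and carry no further treatment. The methods give 1 siRNA sequence against GATAD2A and no time between transfection and RNA isolation for these libraries. All 12830 expressed coding genes were compared.

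GATAD2A, also called p66-alpha, is a subunit of the nucleosome remodelling and deacetylase (NuRD) complex. In NuRD, an ATPase of the CHD family slides nucleosomes and the deacetylases HDAC1 and HDAC2 remove acetyl groups from histone tails. GATAD2A or its paralogue GATAD2B connects the CHD subunit to the rest, which holds MTA, MBD and RBBP proteins. The complex is best known for repression at enhancers and promoters, and it is also found at active genes.

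The number of read pairs counted on genes was 19308315 and 23069839 in the siCTL libraries and 26055760 and 23939785 in the siGATAD2A libraries. Values are given as CPM, counts scaled to a common library size of 1e+06 after TMM normalization, and log2 fold changes are siGATAD2A against siCTL unless another comparison is named. The labels number the replicates but do not say whether they came from separate cultures. The p-values therefore measure only the spread between libraries of a group, estimated over all 12 libraries. Fragments on no annotated feature made up 20.7% and 20.9% of the siGATAD2A libraries and 17.2% and 18% of the siCTL libraries, and mitochondrial genes took 0.648% and 0.655% against 0.586% and 0.574% of the counts. Among 12 markers of HEK293 cells, 9 passed the filter on low values, among them VIM, KRT8 and KRT18. Blood markers below the filter reached at most 0.0426 CPM (HBB) to 1.11 CPM (CD74) in any of the 12 libraries, with PTPRC at most at 0.0442 CPM. Fibroblast markers below it reached 0.0515 CPM (FAP) to 1.36 CPM (COL1A2), while 5 of the 8 fibroblast markers were above 1 CPM in at least 1 of the 12 libraries. Of 10 markers of breast cancer lines 5 were above 1 CPM in at least 1 library, and PGR reached 7.04 CPM, ESR1 0.596 CPM and TFF1 0.213 CPM. In such bulk samples, fewer cells of a type and less RNA per cell cannot be told apart.

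The targeted gene was examined first. GATAD2A (ENSG00000167491.17; chromosome 19 of GRCh37, 19496635 to 19619741, plus strand) was at 182 and 166 CPM in the siCTL libraries and at 52.7 and 51.0 CPM in the siGATAD2A libraries. The groups were far apart, with a 3.35-fold decrease. On the log2 scale this was −1.74 with a standard error of 0.0595 (edgeR, adjusted p = 1.6e-20). The siRNA of the methods matches 19 bases of coding exon 4 of 12 of the canonical transcript, and the whole 19 bases occur in the canonical transcript of 1 of 20274 coding genes. This stretch, read from the reference transcript, is shown because part of it was also searched for in other genes, as described below. Capitals mark the letters that pair with guide bases 2 to 8, the seed.
GATAD2A target, chr19:19603482-19603500, plus strand: gcggcagagtcAAATACAa

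NuRD subunits did not move together. Of the 16 subunits tested, 4 fell (25%) and 3 rose (18.8%), where 18.2% of all tested genes fell and 15.7% rose. The 4 include GATAD2A, the target of the siRNA. RBBP7 (ENSG00000102054.18), a histone chaperone of the complex, was at 214 and 220 CPM in siCTL and at 146 and 143 CPM in siGATAD2A. Both siGATAD2A values were below both controls, which gave −0.59 on the log2 scale (adjusted p = 1.7e-12, standard error 0.0443). MTA2, a scaffold subunit, fell from 485 and 464 to 333 and 327 CPM (log2 fold change −0.52), and the small subunit CDK2AP1 fell from 73.7 and 73.5 to 56.3 and 49.0 CPM (−0.48). HDAC1 rose from 210 and 211 to 299 and 299 CPM (0.51, standard error 0.0410, adjusted p = 8.7e-12). It was also called higher than siCTL in all 4 other knockdowns (0.31 to 0.52). The scaffold subunits MTA1 (0.37) and MTA3 (0.31) rose in siGATAD2A as well. MTA3 was no longer called without siCTL replicate 2 (0.26).

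The paralogue GATAD2B lay at the edge of the fold minimum. It was at 106 and 103 CPM in siCTL and 123 and 127 CPM in siGATAD2A, a log2 fold change of 0.26 with an adjusted p of 4.0e-05. That is just under the minimum of 1.2-fold (0.2630 on the log2 scale), so it was not called. It passed with siCTL replicate 1 left out (0.28) and with siGATAD2A replicate 1 left out (0.28). The other 8 subunits were not called: log2 fold changes were −0.01 for HDAC2, −0.09 for CHD4, 0.14 for CHD3, −0.19 for CHD5, −0.22 for KDM1A, 0.14 for RBBP4, −0.07 for MBD3 and −0.04 for MBD2. The counts of CHD4 are uncertain, since 46.9% of its exonic bases also belong to another gene of that strand. Of the 7 called subunits, GATAD2A and RBBP7 also differed from all 4 other knockdowns.

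Against siCTL, 2339 genes (18.2%) were lower and 2012 (15.7%) higher in siGATAD2A, at an adjusted p of 0.05 or less in edgeR's quasi-likelihood test and a fold of at least 1.2. In 2337 of the lower and 2011 of the higher genes the 2 siGATAD2A values lay beyond both siCTL values, which was the case downwards for 38.3% and upwards for 38.4% of all tested genes. The median fold was 1.41 among lower and 1.35 among higher genes, and 282 genes fell and 200 rose by more than 2-fold. The median log2 fold change over all genes was 0.00 to 2 decimals.

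**Figure D1:**
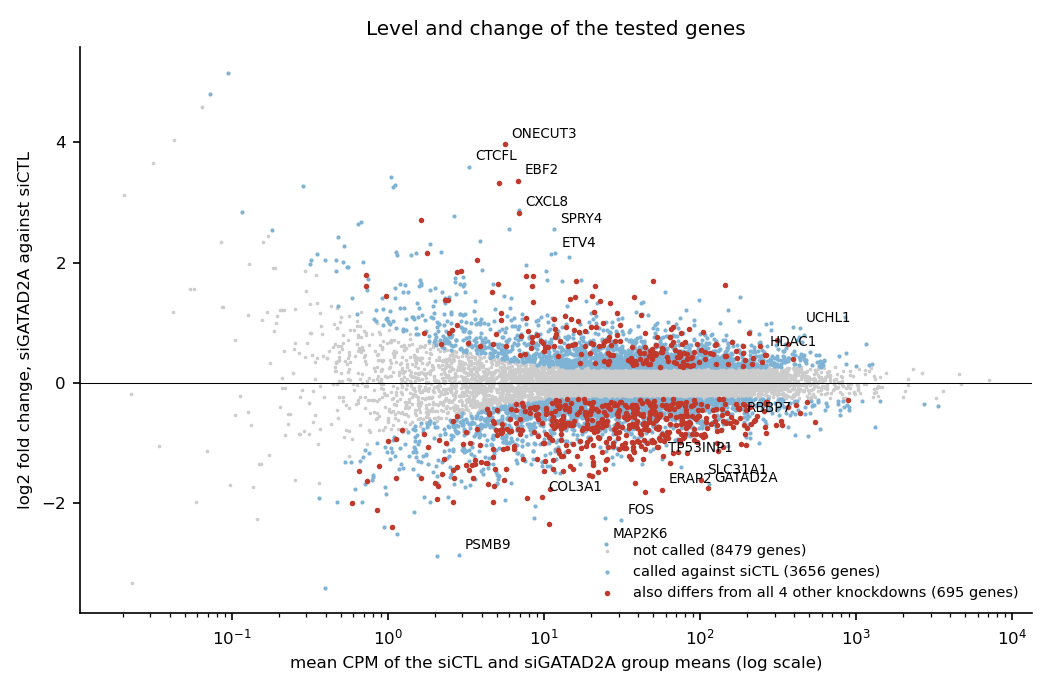
Log2 fold change of each tested gene in siGATAD2A against siCTL (vertical axis) by its mean CPM (horizontal axis, log scale). Grey points were not called, blue points were called against siCTL, and the red points, 494 lower and 201 higher, also differed in the same direction from all 4 other knockdowns.

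The strongest decreases, among genes at 5 CPM or more in siCTL, were in genes of immediate early transcription, antigen processing, kinase signalling and secreted proteins. MAP2K6, the kinase that activates p38, was at 42.8 and 43.8 CPM in siCTL and at 6.42 and 7.08 CPM in siGATAD2A (log2 fold change −2.68, standard error 0.0992). PSMB9, a subunit of the immunoproteasome, fell from 5.96 and 4.05 to 0.732 and 0.619 CPM (−2.86). FOS (ENSG00000170345.10), a subunit of the AP-1 transcription factor, fell from 50.6 and 52.6 to 10.6 and 10.7 CPM (−2.28, standard error 0.0863, adjusted p = 2.0e-19). In all 3 genes both siGATAD2A values lay below both control values, as the choice of genes required.

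The same ranking held FOSB (−2.25), C1QL4 (−2.35) and C1QL1 (−1.77), the last 2 being secreted C1q-like proteins. PCK1, a gluconeogenic enzyme, fell from 13.3 and 15.4 to 3.38 and 2.65 CPM (−2.25). The LIM domain gene CRIP2 (−2.05), the calcium-binding gene S100A4 (−1.99) and the matrix genes ECM1 (−1.95), ADAMTSL4 (−1.91) and COL3A1 (−1.90) followed. LGALS1, which encodes a secreted lectin, fell from 65.9 and 71.8 to 19.6 and 19.8 CPM (−1.81), and ERAP2, a peptidase that trims peptides for presentation, from 88.9 and 87.0 to 24.6 and 26.9 CPM (−1.77). With GATAD2A these make the 15 genes with the largest decrease among genes at 5 CPM or more in siCTL. Of them 8 were also lower than in each of the 4 other knockdowns. In ADAMTSL4, 28.2% of exonic bases are shared with another gene on the strand, and counts of both strands gave only −0.83.

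The 15 largest increases were ranked by fold among genes at 5 CPM or more in siGATAD2A. These genes had little RNA in control cells, which this choice favours. Transcription factors and cell surface genes were among them. ONECUT3, a homeodomain factor, was at 0.547 and 0.782 CPM in siCTL and at 10.8 and 10.4 CPM in siGATAD2A (log2 fold change 3.96, standard error 0.238, adjusted p = 9.5e-15). EBF2, a factor of adipose and neural cells, rose from 1.31 and 1.10 to 13 and 11.8 CPM (3.36, standard error 0.202). CTCFL, the germline paralogue of CTCF, rose from 0.438 and 0.552 to 5.45 and 6.77 CPM (3.59), and was at 30.1 and 30.0 CPM in siCHD4. The siCTL and siGATAD2A values did not overlap in any of the 3 genes, as the choice of genes required.

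Among surface and adhesion genes, TMEM132E (3.32), the cadherin CDH4 (2.88) and the protocadherins PCDH10 (2.15) and PCDHGB6 (2.04) rose. CDH4 was at 1.75 with counts of both strands, and TMEM132E at 3.95 without siCTL replicate 1. PCDHGB6 shares 32.1% of its exonic bases with genes of the same cluster, so its counts are uncertain. Secreted factors that rose were the chemokine CXCL8, from 2.02 and 1.43 to 12 and 12.3 CPM (2.83), the protease ADAMTS16 (2.55), the ligand WNT7B (2.36) and the BMP antagonist GREM1 (1.96). The lipid transporter ABCG1 (1.87) and the actin-like gene ACTBL2 (2.10) complete the group together with SPRY4 and ETV4, described below. Of these 15 genes 5 were also higher than in each of the 4 other knockdowns.

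**Figure D2:**
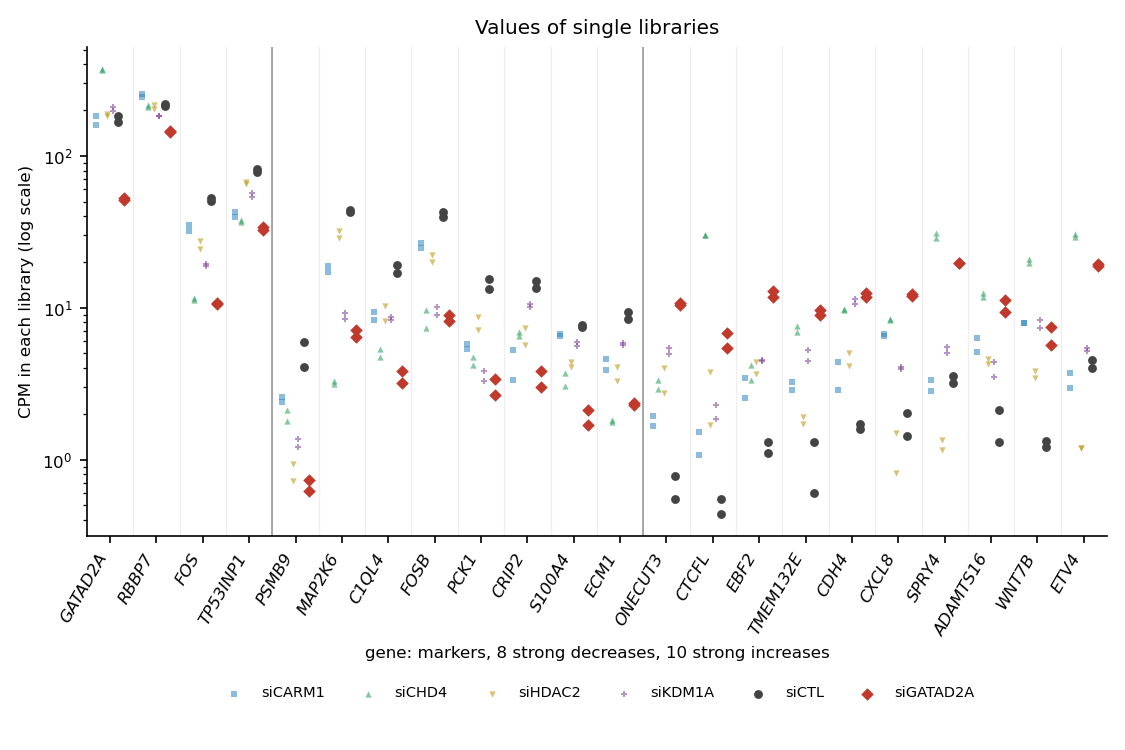
CPM in each of the 12 libraries (vertical axis, log scale) for the markers, 8 strong decreases and 10 strong increases (horizontal axis), 2 points per group. Black circles are siCTL and red diamonds siGATAD2A: for each gene shown the red pair lies wholly below or wholly above the black pair. The choice of the strong decreases and increases required that these pairs not overlap. The other knockdowns (small symbols) lie on either side or between.

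Immediate early genes and feedback regulators of ERK signalling changed in both directions. Of 36 such genes tested, 6 fell (16.7%, near the 18.2% of all genes) and 18 rose (50% against 15.7%), and the median log2 fold change was 0.25. The genes that fell were the transcription factors FOS, FOSB, EGR1, JUNB and KLF2 and the phosphatase DUSP1. EGR1 changed by −0.93 (93.5 to 49.0 CPM on average), JUNB by −0.49 and DUSP1 by −0.45. The genes that rose included inhibitors of receptor signalling and ERK phosphatases. SPRY4 rose from 3.56 and 3.17 to 19.8 and 19.7 CPM (2.56, standard error 0.133), SPRY2 from 26.9 and 25.7 to 56.1 and 58.5 CPM (1.13), DUSP6 by 1.14, DUSP5 by 0.98 and SPRED2 by 0.95. IER3, an early response gene, rose by 1.70 and the stress factor ATF3 by 1.08. ETV4, a transcription factor induced by ERK signalling, rose from 3.99 and 4.55 to 18.9 and 19.5 CPM (2.16).

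The values in the other knockdowns lay far apart for these genes. SPRY4 had log2 fold changes of 3.15 in siCHD4, 0.66 in siKDM1A, −0.11 in siCARM1 and −1.44 in siHDAC2, and ETV4 had 2.80, 0.30, −0.37 and −1.85. FOS was below siCTL in all 4, from −0.62 in siCARM1 to −2.17 in siCHD4. The contrast of FOS between siGATAD2A and siCHD4 did not pass (difference −0.11, adjusted p = 0.385). In the kinase genes of the p38 and ERK pathways, 5 of 28 fell (17.9%, near the 18.2% of all genes) and 1 rose (BRAF, 0.28), with a median of −0.01. Next to MAP2K6 they were the p38 isoforms MAPK11 (−0.85) and MAPK13 (−0.30), the downstream kinase RPS6KA5 (−0.62) and MAP3K6 (−0.61). BRAF was not called without siGATAD2A replicate 2 (0.24), and MAPK13 was not called without siCTL replicate 2 or siGATAD2A replicate 2 (−0.26 in both).

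Many genes activated by p53 fell. Of 48 tested, 22 fell and 3 rose (45.8% and 6.25%, against 18.2% and 15.7% of all genes), with a median log2 fold change of −0.24. In the other knockdowns the median of this list lay between −0.21 (siCHD4) and −0.01 (siHDAC2). TP53INP1 (ENSG00000164938.14), an autophagy and cell death regulator, was at 81.4 and 78.2 CPM in siCTL and at 32.5 and 34.2 CPM in siGATAD2A (−1.26, standard error 0.0629, adjusted p = 1.4e-16). It was lower in the other knockdowns as well, from −0.28 in siHDAC2 to −1.10 in siCHD4. The largest decrease was in the cytokine gene GDF15 (−1.59), followed after TP53INP1 by the metabolic phosphatase TIGAR (−1.10), the cell cycle inhibitor CDKN1A (−0.92), the apoptosome component APAF1 (−0.89) and RAP2B (−0.84). The ubiquitin ligase MDM2 fell by 0.30 on the log2 scale. PERP (0.67), PLK2 (0.38) and PMAIP1 (0.37) rose. Of the 22 genes that fell, 6 differed from all 4 other knockdowns, and 12 held the seed match described below in the 3′ UTR. TIGAR, APAF1, RAP2B, ZMAT3 and TNFRSF10A were among both. Of all 48 genes tested, 18 held this match. The part of this match in the decrease was not tested.

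Interferon-stimulated genes held the largest share of decreases of any list over 10 genes: 19 of 35 tested fell and 4 rose (54.3% and 11.4%, against 18.2% and 15.7% of all genes), with a median of −0.43. In the other knockdowns the median of this list lay between −0.21 (siHDAC2) and −0.12 (siKDM1A). After PSMB9 the largest decreases in siGATAD2A were in the antiviral genes IFIT2 (−1.98) and IFIT3 (−1.68). IFI6 was at 15.5 and 16.8 CPM in siCTL and at 6.79 and 6.5 CPM in siGATAD2A (−1.28), with 23.1% of its exonic bases shared with another gene. ISG15, a ubiquitin-like modifier, changed by −1.27, IFI35 by −1.22 and the membrane protein IFITM3 by −1.21, from a mean of 43.7 to 18.8 CPM. The transcription factor IRF7 changed by −0.44, and in antigen presentation TAP1 changed by −0.55 and HLA-E by −0.57. BST2 (0.40), HLA-B (0.32, with 30.7% of exonic bases shared) and OAS3 (0.29) rose. CXCL10 had 2.04, from a mean of only 0.160 CPM in siCTL, and was not called by DESeq2, without siCTL replicate 2 (1.199; 3.64 without siCTL replicate 1) or without siGATAD2A replicate 1 (2.01). BST2 was not called without siCTL replicate 1 (0.37) or siGATAD2A replicate 2 (0.29), and OAS3 not without siCTL replicate 1 (0.25). The seed match described below was held by 4 of the 19 genes that fell and by 8 of all 35 tested.

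Many genes of the extracellular matrix and its receptors fell. Of 41 collagen, laminin, integrin and related genes tested, 19 fell and 5 rose (46.3% and 12.2%, against 18.2% and 15.7% of all genes), with a median of −0.24. The fibrillar collagen COL3A1 was at 14.7 and 15.7 CPM in siCTL and at 4.31 and 3.85 CPM in siGATAD2A, and COL5A2 changed by −1.32. The integrin subunit ITGA4 fell from 27.9 and 29.4 to 8.74 and 11.1 CPM (−1.54, standard error 0.0954, adjusted p = 2.1e-14). COL9A3 (−1.16), the collagen-binding protein SPARC (−1.05) and fibronectin FN1 (−0.85, from a mean of 249 to 138 CPM) fell as well. COL6A3 rose by 3.42, from a mean of 0.174 to 1.93 CPM, and LAMA4 (0.77) and ITGAV (0.69) rose. Of the 19, 8 differed from all 4 other knockdowns, in which the median of this list lay between 0.04 and 0.22.

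In the TGF-beta and BMP pathway 11 of 32 genes fell (34.4% against 18.2% of all genes) and 5 rose (15.6%, near the 15.7% of all genes), with a median of −0.16. The median of this list was −0.18 in siHDAC2, −0.13 in siKDM1A, −0.04 in siCHD4 and 0.01 in siCARM1. All 4 ID genes, which encode inhibitors of helix-loop-helix factors and are targets of BMP signalling, fell: ID2 by −0.97, ID1 by −0.66, ID4 by −0.43 and ID3 by −0.31. ID3 was not called without siGATAD2A replicate 2 (−0.23). The signal transducer SMAD5 (−0.56) and the receptor BMPR2 (−0.46) fell and differed from all 4 other knockdowns. The ligands BMP2 (0.84) and TGFB2 (0.79) and the receptor ACVR2B (0.61) rose.

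Of 29 genes of the ATF4 response and the unfolded protein response, 14 rose and 2 fell (48.3% and 6.9%, against 15.7% and 18.2% of all genes), with a median of 0.22. ATF4, the factor that drives amino acid and stress genes, rose from a mean of 190 to 379 CPM (0.99). PPP1R15A (1.21), a phosphatase subunit that acts on eIF2-alpha, the cystine transporter SLC7A11 (1.08) and the transcription factor XBP1 (0.79) rose, and the chaperones CALR (0.45) and HSPA5 (0.37) rose less. The median of this list was 0.41 in siCHD4 and between 0.09 and 0.16 in siCARM1, siHDAC2 and siKDM1A. CHAC1, which degrades glutathione, rose in siGATAD2A (0.65) and was at −0.36 to −1.23 in the other knockdowns. It was not called without siGATAD2A replicate 1 (0.56). EDEM1 (−0.86) and DDIT4 (−0.83) fell.

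Few genes of the S phase and G2/M lists were called, where 18.2% of all genes fell and 15.7% rose. Of the 18 cell cycle genes examined in the study 4 fell (22.2%) and 6 rose (33.3%), with a median of 0.01. Among them were the phosphatase CDC25B (−0.68) and the cyclin-dependent kinase CDK6 (0.72). E2F1, which activates S phase genes, rose from a mean of 138 to 200 CPM (0.53), and CDCA5, which protects cohesion, from 187 to 250 CPM (0.41). Both were higher than in each of the 4 other knockdowns. Of 43 S phase genes 2 fell (4.65%) and 4 rose (9.3%; median 0.02), with CCNE2 at −0.83 and CDC45 at 0.44. Of 53 G2/M genes 7 fell (13.2%) and 2 rose (3.77%, median −0.13), with ANLN at −0.61 and BIRC5 at 0.40. In cholesterol synthesis 2 of 25 genes fell (8%) and 3 rose (12%, median 0.00), SREBF1 most (0.90). Of 29 proteins that recruit or join NuRD, 4 fell (13.8%) and 7 rose (24.1%, median 0.09), with BCL11B at 1.11 and ZMYND11 at −0.70.

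**Figure D3:**
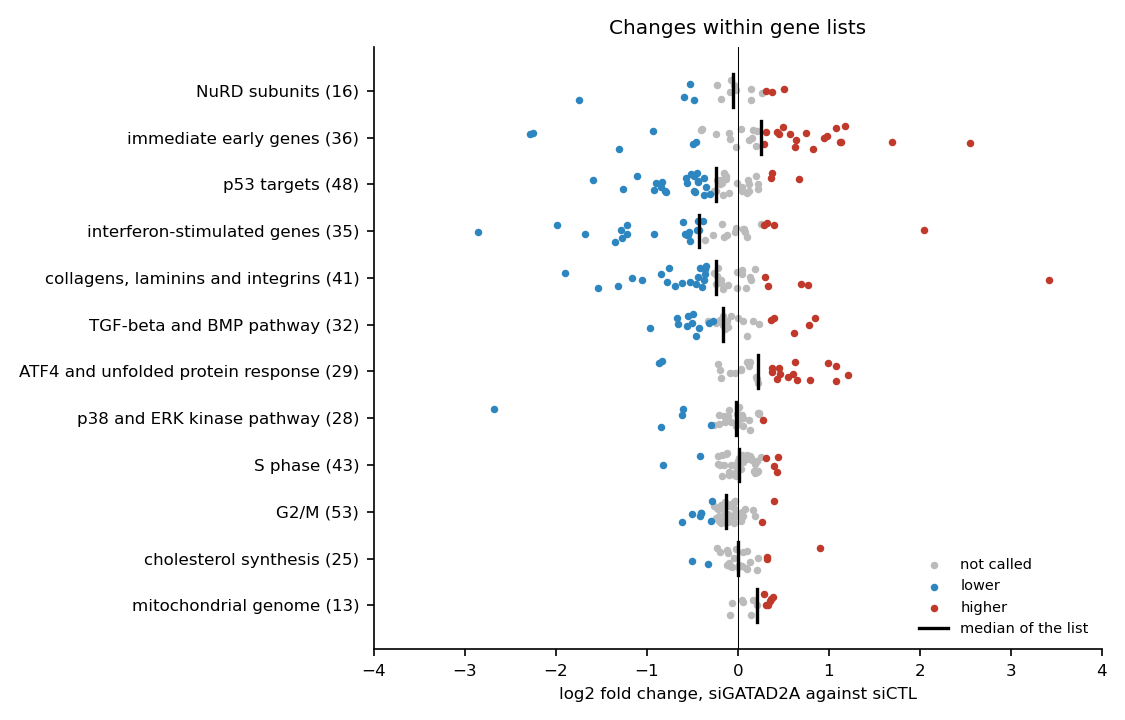
Log2 fold change in siGATAD2A against siCTL (horizontal axis) of each tested member of 12 gene lists (number of members in brackets), blue where lower, red where higher and grey where not called, with the median of the list as a black bar. Medians are farthest below 0 for interferon-stimulated genes (−0.43) and farthest above 0 for immediate early genes (0.25).

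Few genes of the lists for other cell types and lineages were expressed. Of 34 neuronal genes 13 were tested, of which 1 fell (L1CAM, 7.69%) and 5 rose (38.5%). Among all tested genes 18.2% fell and 15.7% rose. The ubiquitin hydrolase UCHL1 was at 0.91 (301 to 566 CPM on average) and MAP2 at 0.94. Of 36 germline genes 10 were tested, of which 1 fell (10%: TEX15, −0.43) and 5 rose (50%), CTCFL and PRAME (0.72) among them. SSX1, also called, had no count in either siCTL library, so no fold is given, and its call was lost without either siCTL replicate and without siGATAD2A replicate 1. In the HEK293 list VIM (−0.64) and KRT8 (−0.31) fell and EYA1 rose by 0.39, a call lost in DESeq2, without siCTL replicate 2 (0.33) and without either siGATAD2A replicate (0.36 and 0.42). In the breast cancer list 1 of 4 fell and 2 rose, and in the fibroblast list 2 of 4 fell (COL3A1 and COL1A1). No gene of the blood list was called. The summed level of the HEK293 list was 2448 CPM in both siCTL libraries and 2048 to 2089 CPM in siGATAD2A, that of the breast cancer list 210 to 218 and 249 to 252 CPM, and that of the blood list 3.91 to 4.38 and 5.25 to 5.62 CPM. The summed level of the fibroblast list was 132 CPM in both siCTL libraries and 88.4 to 91.9 CPM in siGATAD2A, and its part in the results on matrix genes was not tested.

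To find the changes that set this knockdown apart, siGATAD2A was also compared with each of the other knockdowns. In these contrasts the siCTL libraries cancel, while the 2 siGATAD2A libraries enter all 4. A gene was counted when it was called against siCTL and in the same direction against siCARM1, siCHD4, siHDAC2 and siKDM1A, which held for 494 lower genes (3.85% of those tested) and 201 higher genes (1.57%). They make up 21.1% of the lower and 9.99% of the higher genes of the comparison with siCTL. Against the mean of the 4 other knockdowns, which uses no siCTL library, 2026 genes were lower (15.8%) and 1428 higher (11.1%).

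The lower genes were mostly moderate changes. Their median log2 fold change against siCTL was −0.68 in siGATAD2A and between −0.03 and 0.03 in the other knockdowns, and 182 of the 494 were called in none of those. The share of all tested genes called in none of the other knockdowns was not taken. The largest gap to the nearest other knockdown was in LINGO1, a neuronal membrane protein, at 7.49 and 4.83 CPM in siCTL and 2.28 and 2.57 CPM in siGATAD2A. Its log2 fold change was −1.33 here and between 0.59 and 1.65 in the others. After GATAD2A itself came HMOX1, the enzyme that degrades heme, at 49.1 and 41.4 CPM in siCTL and 21.6 and 21.0 CPM in siGATAD2A (−1.08, standard error 0.0733). It was between 68.7 and 175 CPM in the libraries of the other knockdowns, all above siCTL. CD44, the receptor for hyaluronan, fell from 37.6 and 36.5 to 18 and 18 CPM (−1.04) and was between 47.2 and 99.3 CPM in the others.

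For other genes the gap came mainly from the decrease in siGATAD2A. ERAP2 was between 69.7 and 89.6 CPM in the 8 libraries of the other knockdowns, against 24.6 and 26.9 CPM in siGATAD2A, so its difference to the nearest of them was 1.49 on the log2 scale. It was also called lower than siCTL in siCHD4 (−0.28). The copper transporter SLC31A1 was at 151 and 155 CPM in siCTL, 48.7 and 51.5 CPM in siGATAD2A (−1.61, standard error 0.0517, adjusted p = 4.4e-21) and 126 to 183 CPM in the others. SLC31A1 and the actin-capping gene CAPG (smallest difference 1.09) were called against siCTL in none of the other knockdowns. ITGA4 (smallest difference 1.31) was called higher than siCTL in siCARM1 (0.31), siHDAC2 (0.37) and siKDM1A (0.31). SLFN5, a gene of the Schlafen family (1.11), was called higher in siCARM1 (0.27) and lower in siCHD4 (−0.28). The remaining genes with the largest differences were TMEM255A (1.54), the secreted matrix proteins SRPX (1.5) and THBS2 (1.24), the actin regulator WIPF1 (1.24), the calcium sensor NCALD (1.10) and the adhesion molecule L1CAM (1.07). For these 15 genes the largest adjusted p of any contrast with another knockdown was 8.6e-05, in NCALD. The genes were chosen by a call in each of these contrasts and by the size of the difference. An adjusted p below the threshold was therefore fixed by the choice and is no separate evidence for the differences.

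**Figure D4:**
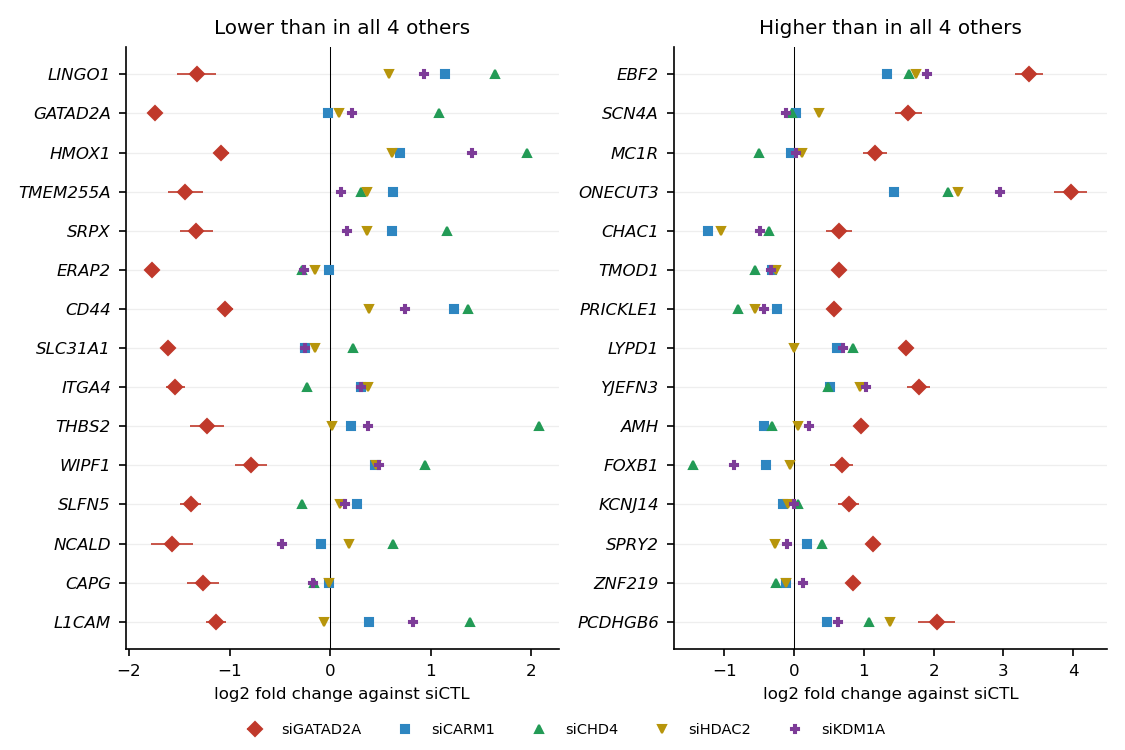
Log2 fold change against siCTL (horizontal axis) in each of the 5 knockdowns for the 15 genes lower (left) and the 15 higher (right) with the largest difference to the nearest other knockdown. Red diamonds are siGATAD2A with the standard error, and the other symbols lie to one side of them for every gene, as the choice of genes requires.

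A small set had opposite calls. Of the 494 genes, 179 were called higher than siCTL in at least 1 other knockdown and 15 in all 4, and these 15 were singled out after their values were seen. By knockdown, 79 of the 494 were called higher in siCARM1, 111 in siCHD4, 43 in siHDAC2 and 72 in siKDM1A. Among all tested genes, 14.9% were called higher than siCTL in siCARM1, 24.0% in siCHD4, 10.6% in siHDAC2 and 14.2% in siKDM1A. By share, the counts of the 494 were near those of all genes. For calls in at least 1 or in all 4 knockdowns, no share over all genes was taken. Beside LINGO1, HMOX1, CD44 and WIPF1, the 15 genes hold VIM, the intermediate filament of mesenchymal cells. VIM was at 398 and 398 CPM in siCTL and 257 and 254 CPM in siGATAD2A (−0.64). Its log2 fold changes were from 0.41 to 0.87 in the other knockdowns. The others were PIEZO2, SLC4A4, CDH23, CA12, GABPB2, ISG20L2, COL5A1, SULF2, CPS1 and TMEM33, with values from −0.46 for PIEZO2 to −0.27 for TMEM33. The call against siCTL was lost without siGATAD2A replicate 1 for PIEZO2 (−0.37), CDH23 (−0.33), CPS1 (−0.24), TMEM33 (−0.24) and SLC4A4 (−0.45). It was lost without siGATAD2A replicate 2 for CA12 (−0.29) and SLC4A4 (−0.41), without siCTL replicate 2 for CA12 (−0.28) and TMEM33 (−0.24), and without siCTL replicate 1 for SLC4A4 (−0.29). None of the 201 higher genes was called lower in all 4, and 59 were called lower in at least 1.

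The genes higher than in each of the other knockdowns were led by EBF2, at 13 and 11.8 CPM here and 2.53 to 4.52 CPM in the 8 libraries of the others. SCN4A, the sodium channel of skeletal muscle, rose from 1.86 and 3.04 to 7.60 and 7.92 CPM (1.64) and was between −0.11 and 0.35 in the others. LYPD1, a membrane-anchored protein, rose from 10.2 and 10.9 to 31.8 and 32.4 CPM (1.61). AMH, the anti-Müllerian hormone, rose from 21.3 and 20.4 to 41.4 and 39.9 CPM (0.96), and the zinc finger gene ZNF219 from 72.9 and 77.4 to 136 and 133 CPM (0.84). SPRY2 (1.13), KCNJ14 (0.78), the forkhead gene FOXB1 (0.68), the tropomodulin TMOD1 (0.64) and the planar polarity gene PRICKLE1 (0.57) followed with smallest differences from 0.72 to 0.89. For MC1R (1.16) and YJEFN3 (1.78), 40.2% and 38.5% of exonic bases are shared with another gene on the strand, and their counts are uncertain.

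The lower genes shared a sequence feature that had no part in their choice. The letters AAATACA, the match to guide bases 2 to 8 of the GATAD2A siRNA, were searched on the transcript strand of the 3′ UTR, taken from the canonical transcript, which was available for 12788 genes. They were found in 59.4% of the genes lower than in siCTL and all 4 other knockdowns (293 of 493), in 34.3% of the other lower genes, in 29.5% of all genes and in 15% of the genes higher than in all 4 others (30 of 200). More than 1 match was found in 34.1% of the first group and in 11.2% of all genes. Genes that fell by more than 2-fold held it in 30.1%, close to the share of all genes, and genes that fell by 1.2-fold to 2-fold in 40.9%. The match was present in 3 of the 15 genes with the largest decrease and in 8 of the 15 with the largest increase. Among the 15 each way with the largest difference from the other knockdowns, 3 higher and 8 lower genes held it.

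First matches in the 3′ UTR of RBBP7 and of 6 among those 8 lower genes show the letters in their context. The match is in capitals, with 8 bases on each side, read from the GRCh37 transcripts.
RBBP7, chrX:16862918-16862940, minus strand: ttgattttAAATACAagtagcag
ERAP2, chr5:96253441-96253463, plus strand: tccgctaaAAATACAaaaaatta
ITGA4, chr2:182400655-182400677, plus strand: ttcatttcAAATACAtctttgat
SLFN5, chr17:33593079-33593101, plus strand: ccactgacAAATACAcagataga
TMEM255A, chrX:119394021-119394043, minus strand: aaacactgAAATACAcagcaaca
L1CAM, chrX:153127266-153127288, minus strand: gggaatgtAAATACAccgtgact
WIPF1, chr2:175425581-175425603, minus strand: attctgaaAAATACAtttctatt

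ITGA4 and SLFN5 held 5 matches each, SLC31A1 4, TMEM255A 3, ERAP2 2, and RBBP7, L1CAM and WIPF1 1. GATAD2A had none in its 3′ UTR, and neither did HMOX1, CD44, LINGO1, FOS or PSMB9. TP53INP1 held 1 and MAP2K6 4. The printed ERAP2 site lies in letters of the Alu repeat, which is common in human 3′ UTRs.

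The shift grew with the number of matches. The median log2 fold change in siGATAD2A was 0.02 for 9015 genes without a match, −0.04 for 2336 genes with 1, −0.09 for 826 genes with 2 and −0.11 for 611 genes with 3 or more. The medians of the same 4 groups of genes lay between −0.02 and 0.04 in siCARM1, siCHD4, siHDAC2 and siKDM1A, which share the siCTL libraries. Genes lower than in siCTL and all 4 others made up 2.22%, 5.35%, 10.7% and 13.1% of these groups in the same order, and the genes higher than in all 4 others 1.89%, 0.899%, 0.847% and 0.327%.

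Since genes with matches have longer 3′ UTRs, with a median of 2340 bases for 1 match against 886 for none, the shares were also taken within classes of length. In 3′ UTRs from 500 to under 1500 bases, 8.45% of 627 genes with a match and 2.43% of 3206 without one were lower than in siCTL and all 4 others. In 3′ UTRs of 3000 bases or more these were 7.11% of 1885 and 1.89% of 953 genes. The share was higher with a match in each of the 4 classes. The median log2 fold change in siGATAD2A was lower with a match in each class too, by the widest gap in the shortest UTRs (−0.15 against −0.02).

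A pair of other heptamers was counted for comparison, with the search chosen after the data were seen. The same letters in reverse, ACATAAA, were found in 22.5% of the genes lower than in siCTL and all 4 others and in 17.6% of all genes, and the median log2 fold change was 0.00 with and without them. TCTGCCG, the match to bases 2 to 8 of the other siRNA strand, was found in 4.06% and 4.09%, with medians of 0.02 with and 0.00 without it. The part of the seed match in the changes of any single gene was not tested. Among the 9015 genes without a match, 1411 were lower and 1500 higher than in siCTL, and 200 lower and 170 higher than in siCTL and all 4 others.

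**Figure D5:**
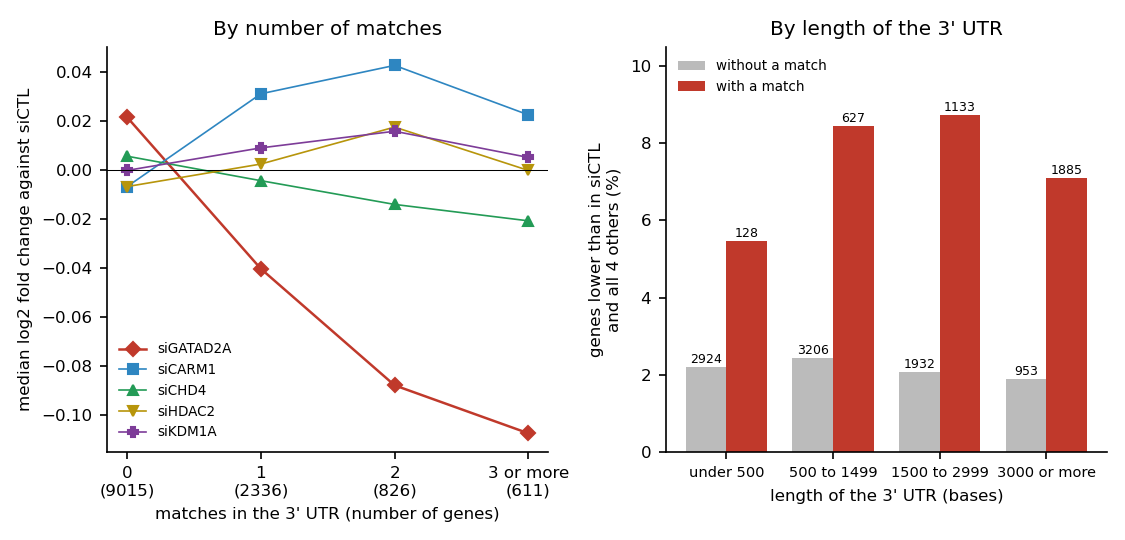
Left, median log2 fold change against siCTL in the 5 knockdowns by the number of seed matches in the 3′ UTR (number of genes in brackets): siGATAD2A goes from 0.02 to −0.11 and the others stay between −0.02 and 0.04. Right, percent of genes lower than in siCTL and all 4 other knockdowns, with (red) and without (grey) a match, in 4 classes of 3′ UTR length, with the number of genes above each bar.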

How the data were processed

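RNA-seq data of 12 libraries were used, and the 4 libraries of siCTL and siGATAD2A are described. For each library the authors deposited the raw gene counts written by STAR, as 3 columns (unstranded, forward and reverse). The submitters' processing notes list hg19, STAR 2.7.10 and CASAVA 1.4, while the study's methods name TopHat, HOMER and DESeq2. The annotation used for counting is not given in the sources used here. Reverse-strand counts were used, 19308315 to 28648657 per library.

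Genes were matched by identifier to GENCODE release 44 mapped to GRCh37 (96.7%, with 1998 identifiers not used). FPKM was computed from the counts, and coding genes with FPKM above 0.5 in the mean of at least 1 group were tested, 12830 in all. edgeR 4.0.16 (quasi-likelihood, TMM, 6 group means, all 12 libraries) gave log2 fold changes, standard errors and Benjamini-Hochberg adjusted p-values. Adjusted p-values in the text are from edgeR unless another tool is named. Genes were called at the study's thresholds, a fold of at least 1.2 with an adjusted p up to 0.05. An exact permutation test of 2 against 2 libraries cannot go below 0.333. The biological coefficient of variation was 3.47%. Replicates differed by more than sampling noise (chi-square per degree of freedom 1.81 in siGATAD2A and 2.67 in siCTL). The analysis was tested on simulated data.

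Named genes are the markers, the NuRD subunits, the 15 with the largest change each way at 5 CPM or more, the 15 each way with the largest difference to the nearest other knockdown, and up to 6 called members and the leading members of each of 20 hand-written lists. The genes with the largest change were required to have both siGATAD2A values beyond both siCTL values. Named genes and lists were chosen with earlier results of these data known. The alternatives were RLE size factors, DESeq2 1.42.0, a replicate block, counts of both strands, 3 other gene filters, glmTreat, no fold minimum, only the 2 groups, and each library left out. Genes without the seed match were added after the data were seen. 3′ UTRs are those of GENCODE's canonical transcripts, and the siRNA was placed on its target by a match of the sequence in the methods. The labels name 2 sequencing companies without saying which library went to which. ChIP-seq and other assays were not analysed here. Some genes and 1 sequence are not reported here.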

Additional observations from a re-analysis of the deposited data

Results flagged for a closer look

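Calls in opposite directions between knockdowns, each difference tested by edgeR's contrast of the 2 knockdowns, were made for 15 genes that were lower than siCTL in siGATAD2A and higher in each of the 4 other knockdowns, HMOX1, CD44 and VIM among them. The reverse, higher in siGATAD2A and lower in each of the 4 others, was called for 0 genes at the same thresholds, and 59 genes higher than in all 4 others were lower than siCTL in at least 1 of them. Over all tested genes, shares of such calls were taken only for single knockdowns, as given above.

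Outside the coding genes of the report, the fit of every biotype with enough counts called 227 genes lower and 650 higher in siGATAD2A, of 5661 tested. Over all 20156 genes of that fit, coding ones included, 2911 were lower and 2559 higher. Of the 227 and 650, long non-coding RNAs (3774 tested) were 159 and 465. No group has more than 2 libraries, so single libraries were not screened for outlying values.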

How the results depend on the processing

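The 6 counts of genes (lower and higher than siCTL, than siCTL and all 4 other knockdowns, and than the mean of those 4) stayed within 1.5 times their value with RLE size factors, DESeq2, FPKM above 1, no filter, every biotype, counts of both strands and, for the first pair, only the 2 groups. DESeq2 gave 2178 lower and 1873 higher genes, of which 2177 and 1873 were among the edgeR calls. glmTreat, which tests against a fold of 1.2, gave 1400 and 1060 against siCTL, 249 and 71 against siCTL and all 4 others, and 1157 and 614 against the mean of the 4. Without a fold minimum these were 3335 and 3272, 770 and 606, and 3343 and 3469. Leaving out 1 library gave 2168 to 2202 lower and 1858 to 1940 higher genes against siCTL, 441 to 488 and 183 to 202 against siCTL and all 4 others, and 1831 to 2024 and 1338 to 1481 against the mean of the 4. Counts of both strands turned the sign of 20 called genes. Replicate numbers did not pair the samples: deviations of same-numbered siCTL and siGATAD2A libraries had r = 0.0212, and a replicate block gave 2331 lower and 2009 higher genes.

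Among genes without the seed match, an alternative added after the data were seen, the counts were 1411 and 1500 against siCTL, 200 and 170 against siCTL and all 4 others, and 1098 and 1118 against the mean of the 4, from the same fit. Of 2409 values for 202 named genes under the alternatives, 2353 kept direction and side of the threshold, 52 lost the call, 4 gained one and 0 reversed, and 29 genes changed under at least 1 alternative.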

Other observations

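Genes next to GATAD2A on chromosome 19 were singled out after their values were seen. YJEFN3 was at 3.88 and 3.82 CPM in siCTL and 13.9 and 12.7 CPM in siGATAD2A (log2 fold change 1.78), and NDUFA13, a subunit of respiratory complex I, rose from 2.79 and 4.09 to 6.99 and 7.39 CPM (1.04). TSSK6, a testis-specific kinase on the other strand, was at 0.48 (adjusted p = 0.0346 from edgeR), a call lost in DESeq2, without siCTL replicate 2 (0.35) and without either siGATAD2A replicate (0.41 and 0.54). MAU2, before GATAD2A, and CILP2, after YJEFN3, were not called (0.08 and −0.17), although CILP2 was called without siCTL replicate 1 (−0.28). YJEFN3 and NDUFA13 overlap other genes on their strand, so their counts are uncertain.

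Of the 13 protein genes of the mitochondrial genome, 6 rose and 0 fell, where 15.7% of all tested genes rose, with a median log2 fold change of 0.21. They were MT-ND4L (0.39), MT-ND2 (0.36), MT-CYB (0.35), MT-ND5 (0.33), MT-ND6 (0.31) and MT-ND4 (0.29), all but MT-CYB coding for subunits of complex I. MT-ND4L (0.28) and MT-ND6 (0.25) were not called without siCTL replicate 2.

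Among non-coding genes, RUNDC3A-AS1 fell from 5.47 and 5.66 to 1.91 and 1.64 CPM (−1.67) and was lower than in all 4 other knockdowns. LCAL1 rose from 1.2 and 1.01 to 6.55 and 6.33 CPM (2.52).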
